A study of Homo sapiens with 12 samples.

Results

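Myeloid lineage transcription factors are described here through 9 genes, SPI1, CEBPA, CEBPD, CEBPE, IRF8, IRF5, RUNX1, IKZF1 and GFI1. They were found by gene name among the 36041 genes of the deposited table, and each name matched 1 row. RNA was sequenced from MOLM13 and MV411 (also written MV4-11), human acute myeloid leukaemia cell lines that both carry an internal tandem duplication of the receptor tyrosine kinase gene FLT3. Cells received 10 nM SGI-7079 for 24 h, a kinase inhibitor developed against the receptor AXL and presented by this study as an inhibitor of FLT3, or the solvent DMSO. The 4 groups were MOLM13 SGI-7079, MOLM13 DMSO, MV411 SGI-7079 and MV411 DMSO, with 3 libraries each. The study asked how the inhibitor acts on transcription in FLT3-mutant leukaemia cells.

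The FLT3 duplication was present in every group, so no group here stands for cells with an unmutated receptor, and each line descends from the leukaemia of 1 person. The 12 libraries held 52352252 to 61862017 counts. Replicates are labelled as separate samples, but their labels do not state separate cultures. The p-values therefore reflect the spread among these libraries alone, and that spread may be technical. Since whole cultures were measured, fewer cells of a type and less RNA per cell cannot be told apart.

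Blood progenitors take the myeloid path when a small set of transcription factors reaches working levels. PU.1, the product of SPI1, and the C/EBP factors open and activate genes of granulocytes and monocytes, RUNX1 and Ikaros act in progenitors, and IRF8 and GFI1 pull in opposite directions, towards monocytes and dendritic cells for IRF8 and towards granulocytes for GFI1. Mutant FLT3 signals through STAT5, ERK and AKT and is known to hold leukaemic cells at an immature stage.

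Among the 9 factors, CEBPA was the most abundant and CEBPE the least in all 4 groups when levels were set per gene length, as fragments per kilobase of gene length, scaled to library size (FPKM). CEBPA averaged 251 ± 6.85 FPKM in MOLM13 SGI-7079 libraries and 217 ± 4.61 FPKM in MOLM13 DMSO libraries, against 181 ± 1.8 and 163 ± 5.89 FPKM in MV411 SGI-7079 and MV411 DMSO libraries (SD, n = 3 each). Of 1451 genes with a transcription factor family in the deposited table, it ranked 1 in MOLM13 SGI-7079 and 3 in each of the other 3 groups. IRF8 came next, with group means of 74.9 to 112 FPKM and a rank of 6 to 20 among those 1451 genes.

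The order below IRF8 was SPI1, CEBPD, GFI1, IKZF1, RUNX1, IRF5 and CEBPE in MOLM13 SGI-7079, MOLM13 DMSO and MV411 DMSO libraries. In MV411 SGI-7079 libraries IRF5 stood above IKZF1 and RUNX1, with 33 ± 1.07 FPKM for IRF5, 31.5 ± 0.956 for IKZF1 and 27.1 ± 0.716 for RUNX1. Several neighbours were not separated by their spread. The ranges of SPI1 and CEBPD overlapped in both MOLM13 groups and in MV411 SGI-7079, those of IRF5 and IKZF1 in MV411 SGI-7079, and those of RUNX1 and IRF5 in MV411 DMSO. CEBPE averaged 0.68 and 0.564 FPKM in MOLM13 SGI-7079 and MOLM13 DMSO and 1.43 and 0.644 FPKM in MV411 SGI-7079 and MV411 DMSO, and ranked 847 to 957 of the 1451 genes.

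**Figure D1:**
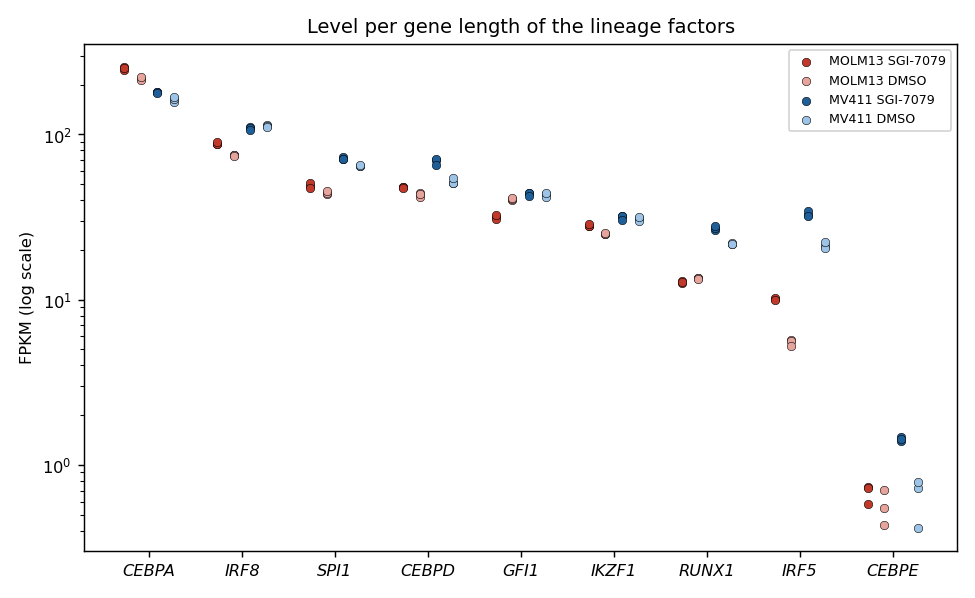
Level per gene length of the 9 factors, in FPKM on a log axis; each point is 1 library, coloured by cell line and treatment. CEBPA lies highest, at group means of 163 to 251 FPKM, and CEBPE lowest, at 0.564 to 1.43 FPKM.

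SGI-7079 moved the factors in different directions, and not in the same way in both lines. IRF5 was higher with the inhibitor in both lines. GFI1 and RUNX1 fell in MOLM13, where IRF8 and CEBPA rose. In MV411, RUNX1, CEBPD and CEBPE rose and IRF8 fell. SPI1 and IKZF1 did not pass the test in either line, although both passed under some of the other scalings, filters or choices of libraries given below. A gene is called higher or lower where the quasi-likelihood test of edgeR gave an adjusted p under 0.05 over the 21438 genes tested, and all 9 factors were among these. Levels below are CPM, counts scaled to library size, with library sizes scaled by the TMM method of edgeR, and fold changes are log2 values with their standard error (SE), from 3 libraries per group.

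In MOLM13, 3 of the 9 factors rose and 2 fell. Over all genes tested, 23.2% rose and 23.6% fell, or 46.8% in all. In MV411, 4 of 9 rose and 1 fell, where 27.2% of genes rose and 24.3% fell, or 51.5% in all. Treated and DMSO libraries did not overlap in 7 of 9 factors in MOLM13 and in 5 of 9 in MV411, against 56.2% and 61.1% of all genes. With only 9 factors these shares are coarse, and their distance from the backgrounds was not tested. The counts are therefore not read as a result about the factors. Of the 1253 tested genes with a transcription factor family, 26.6% were higher and 24.7% lower in treated MOLM13, and 38.4% were higher and 21.5% lower in treated MV411. The shares over all genes tested are also the background of every gene list counted below.

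The split between higher and lower depends on the scaling. TMM factors were larger in treated libraries, at 0.9879 to 1.0057 in MOLM13 SGI-7079 against 0.9327 to 0.9447 in MOLM13 DMSO, and at 1.0616 to 1.0816 in MV411 SGI-7079 against 0.9843 to 1.0041 in MV411 DMSO. With library totals alone as the scale, an alternative added after the data were seen, 6 factors were higher and 2 lower in treated MOLM13, and 6 higher and 0 lower in treated MV411. The median fold change of all genes was 0.05 in MOLM13 and 0.11 in MV411 under TMM, and 0.140 and 0.224 under library totals. Over genes with a mean of at least 1 CPM, as all 9 factors have, the TMM medians were -0.01 and 0.02. The MV411 values of SPI1, CEBPA, IRF8, RUNX1, IKZF1 and GFI1 also moved down when any of 9 libraries was left out, namely the 6 of MOLM13, replicates 1 and 2 of MV411 DMSO and replicate 1 of MV411 SGI-7079. In the same 9 runs the MV411 median of all tested genes moved down as well, to 0.030 to 0.056 from 0.114. These moves are therefore not particular to the factors, and the 9 runs are not separate evidence for any 1 of them. The remaining factors were not fixed either. With 1 library left out, the MV411 value ran from 0.41 to 0.56 for IRF5, 0.21 to 0.34 for CEBPD and 0.73 to 1.23 for CEBPE. The members whose direction or call moves are named below with their values.

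**Figure D2:**
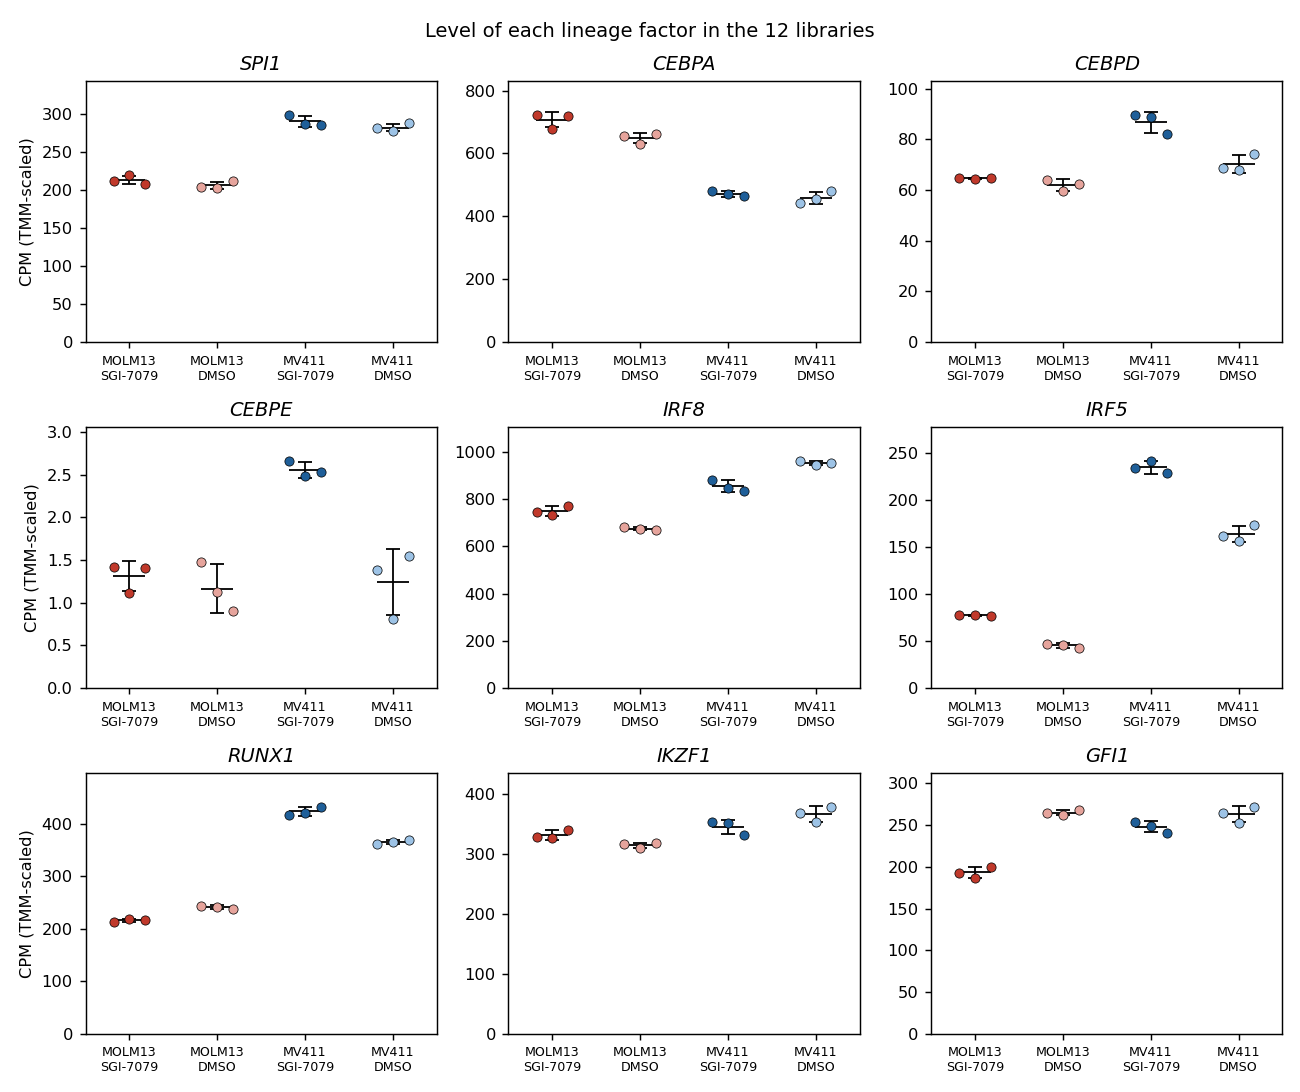
CPM of each of the 9 factors in the 12 libraries; points are libraries, horizontal lines are group means and bars are 1 SD, with axes that start at 0. IRF5 is higher in SGI-7079 libraries of both lines, and RUNX1 lies lower in MOLM13 SGI-7079 (213 to 218 CPM) and higher in MV411 SGI-7079 (418 to 433 CPM) than in the DMSO libraries of the same line.

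SPI1 encodes PU.1, an ETS-family factor needed for the formation of macrophages and granulocytes (ENSG00000066336, chromosome 11, 47354860 to 47378547, minus strand, hg38). It had 212, 219 and 208 CPM in MOLM13 SGI-7079 libraries, against 204, 202 and 211 CPM in MOLM13 DMSO libraries. In MV411 it had 298, 286 and 285 CPM with SGI-7079, against 281, 277 and 287 CPM with DMSO. The treated and DMSO libraries overlapped in both lines. The log2 fold change was 0.05 ± 0.03 in MOLM13 (adjusted p = 0.2) and 0.04 ± 0.03 in MV411 (adjusted p = 0.304), and in MV411 it was -0.01 without the filter on low counts. With library totals as the scale it passed in both lines, at 0.14 in MOLM13 (adjusted p = 0.0016) and 0.15 in MV411 (adjusted p = 0.000663). The effects in the lines differed by -0.01 ± 0.04 (MV411 minus MOLM13, adjusted p = 0.924). The lines themselves differed more, with 282 CPM in MV411 DMSO and 206 CPM in MOLM13 DMSO (log2 fold change 0.45 ± 0.03, adjusted p = 2.84e-08).

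The related gene SPIB, an ETS factor best known in B cells and plasmacytoid dendritic cells, was at 8.65 ± 0.886 and 8.24 ± 0.76 CPM in MOLM13 SGI-7079 and MOLM13 DMSO (log2 fold change 0.07 ± 0.16, adjusted p = 0.765). In MV411 it rose to 9.66 ± 1.3 CPM with SGI-7079, against 6.89 ± 1.46 CPM with DMSO (0.49 ± 0.16, adjusted p = 0.0212). Its effects in the lines differed by 0.42 ± 0.23, which did not pass the test (adjusted p = 0.242).

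Known target genes of PU.1 rose in larger numbers than they fell, although SPI1 itself did not pass the test. Of 14 such genes, 9 were higher and 1 lower in treated MOLM13, and 8 higher and 2 lower in treated MV411. Over all genes tested, 23.2% were higher and 23.6% lower in MOLM13, and 27.2% higher and 24.3% lower in MV411. The list was chosen with earlier results of these data known, so these counts are not independent evidence about PU.1. Over the 12 of them with a mean of at least 1 CPM, the median log2 fold change was 0.67 in MOLM13 and 0.59 in MV411, beside medians of -0.01 and 0.02 over all genes of that level. CSF1R, the receptor of the macrophage growth factor M-CSF, averaged 31.7 CPM in MOLM13 SGI-7079 and 5.84 CPM in MOLM13 DMSO (2.44 ± 0.06, adjusted p = 3.78e-12). It averaged 150.2 CPM in MV411 SGI-7079 and 55.4 CPM in MV411 DMSO (1.44 ± 0.05, adjusted p = 2.54e-11), and the effect was smaller in MV411 by the test of the difference (adjusted p = 1.14e-06).

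FES, a tyrosine kinase of myeloid cells, rose by 0.68 ± 0.04 in MOLM13 and 0.69 ± 0.04 in MV411 (adjusted p = 1.89e-08 and 9.34e-09). CD68, a lysosomal glycoprotein of macrophages, rose to 117 ± 24.8 CPM in MOLM13 SGI-7079, against 41.4 ± 0.875 CPM in MOLM13 DMSO (adjusted p = 3.69e-06). In MV411 it rose to 174 ± 5.82 CPM with SGI-7079, against 45.1 ± 10.9 CPM with DMSO (adjusted p = 1.96e-07). NCF4, a subunit of the phagocyte NADPH oxidase, rose by 0.56 ± 0.05 in MOLM13 and 0.40 ± 0.04 in MV411 (adjusted p = 3.68e-07 and 2.84e-06). BTK, a kinase of B cells and myeloid cells, rose by 0.28 ± 0.03 in MOLM13 and 0.50 ± 0.03 in MV411 (adjusted p = 3.98e-06 and 7.78e-09). The genes that fell were the lysozyme gene LYZ in both lines (-0.16 ± 0.03 in MOLM13 and -0.09 ± 0.03 in MV411, adjusted p = 0.000679 and 0.0188, the MV411 value being 0.02 with library totals as the scale) and FCGR1A, the high-affinity Fc receptor of monocytes, in MV411 (-0.57 ± 0.05, adjusted p = 1.54e-07). CD14, the lipopolysaccharide co-receptor of monocytes, averaged 0.161 to 0.257 CPM over the 4 groups and did not pass the test in either line.

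CEBPA, the basic leucine zipper factor that starts the granulocyte and monocyte programme, rose slightly in MOLM13 (ENSG00000245848, chromosome 19, 33299934 to 33302534, minus strand). Libraries of MOLM13 SGI-7079 had 722, 679 and 719 CPM, against 654, 631 and 662 CPM in MOLM13 DMSO. The groups did not overlap, and the log2 fold change was 0.12 ± 0.04 (adjusted p = 0.0127), a ratio of 1.09. In MV411 the values were 481, 469.7 and 464 CPM with SGI-7079, against 443, 454 and 481 CPM with DMSO, and the groups overlapped. That fold change of 0.04 ± 0.04 did not pass the test (adjusted p = 0.422), and was -0.02 without the filter on low counts and 0.15 with library totals as the scale (adjusted p = 0.000838). The difference between the lines, -0.09 ± 0.05, did not pass the test (adjusted p = 0.293). It passed on leaving out any of 6 libraries, namely replicates 1 and 3 of MOLM13 DMSO, replicate 2 of MOLM13 SGI-7079, replicates 1 and 2 of MV411 DMSO and replicate 1 of MV411 SGI-7079, with values of -0.19 to -0.17 (adjusted p = 0.0133 to 0.0481). Between the untreated lines CEBPA was the 1 factor lower in MV411, at 459 CPM in MV411 DMSO and 649 CPM in MOLM13 DMSO (-0.50 ± 0.04, adjusted p = 4.58e-08). A pair of long non-coding RNA genes on the other strand overlap its exon by 659 and 482 bases. They held 0 to 2 and 0 to 1 counts per library. The sources used here do not say whether the counting used the strand.

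CEBPD encodes a C/EBP factor that is induced by inflammatory signals and acts in granulocytes and macrophages (ENSG00000221869, chromosome 8, 47736913 to 47738164, minus strand). It rose in MV411, with 89.6, 88.8 and 82 CPM in SGI-7079 libraries, against 68.6, 68.1 and 74.2 CPM in DMSO libraries. Each treated MV411 library lay above each DMSO library, and the log2 fold change was 0.30 ± 0.04 (adjusted p = 5.98e-05). In MOLM13 the values were 64.8, 64.4 and 64.8 CPM with SGI-7079, against 64, 59.6 and 62.3 CPM with DMSO. They did not overlap either, but by a margin that did not pass the test (0.06 ± 0.05, adjusted p = 0.298). With library totals as the scale, the MOLM13 value was 0.15 (adjusted p = 0.00869). The effect was larger in MV411 by 0.24 ± 0.06 (adjusted p = 0.0154), a difference that was 0.18 without the filter on low counts (adjusted p = 0.0853). It was also lost on leaving out any of the 9 libraries named above, with values of 0.14 to 0.19. Without treatment CEBPD was at 70.3 CPM in MV411 DMSO and 62 CPM in MOLM13 DMSO (0.18 ± 0.05, adjusted p = 0.00368).

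CEBPE acts late in granulocyte formation, where it switches on the genes of secondary granules (ENSG00000092067, chromosome 14, 23117036 to 23120256, minus strand). It was close to the lower end of what these libraries measure, with 48 to 172 counts per library. In MV411 it rose, with 172, 153 and 143 counts in SGI-7079 libraries, against 79, 48 and 94 counts in DMSO libraries. These are 2.66, 2.48 and 2.53 CPM with SGI-7079, against 1.38, 0.802 and 1.54 CPM with DMSO, without overlap. The log2 fold change was 1.04 ± 0.27 (adjusted p = 0.00554), a ratio of 2.06, and lay between 0.73 and 1.23 when 1 library was left out. In MOLM13 there were 1.42, 1.11 and 1.4 CPM with SGI-7079, against 1.47, 1.12 and 0.898 CPM with DMSO, and the groups overlapped (0.17 ± 0.27, adjusted p = 0.662). The difference of 0.87 ± 0.39 between the lines did not pass the test (adjusted p = 0.144), so the rise is not shown to be particular to MV411. Of 20 alternatives, 1 passed, the filtered test on log2(FPKM + 1), at 0.47 (adjusted p = 0.0202). Untreated, the lines had 1.24 ± 0.39 CPM in MV411 DMSO and 1.16 ± 0.291 CPM in MOLM13 DMSO (0.09 ± 0.28, adjusted p = 0.803).

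The stretch of 250 bases before the RefSeq start of CEBPE is shown because CEBPE had the largest fold change of the 9 factors in MV411. That start lies inside the gene as the deposited table spans it, not at its outer end, and so do the starts shown for IRF5 and GFI1. The stretch lies at chr14:23119256-23119505 on the minus strand and comes from RefSeq on GRCh38.p14. Capitals mark the match to TTCNNNGAA, the palindrome bound by STAT5, which mutant FLT3 is known to activate. The match starts at position -242 from the RefSeq start, and 6.56% of 35097 windows of that length hold one.
CEBPE promoter: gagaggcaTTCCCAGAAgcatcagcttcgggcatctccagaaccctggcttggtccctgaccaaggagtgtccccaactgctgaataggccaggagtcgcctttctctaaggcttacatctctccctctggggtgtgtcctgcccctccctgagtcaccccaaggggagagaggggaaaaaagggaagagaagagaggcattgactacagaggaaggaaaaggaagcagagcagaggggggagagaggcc

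Other C/EBP genes did not follow CEBPD and CEBPE. Of 4 relatives tested, 0 rose and 2 fell in each line, with a median of -0.25 in MOLM13 and -0.28 in MV411. CEBPG, a short partner without an activation domain, fell by 0.30 ± 0.04 in MOLM13 and by 0.40 ± 0.04 in MV411 (adjusted p = 8.2e-05 and 3.98e-06). CEBPZ, a nucleolar protein that shares the name but has a role in ribosome production, fell by 0.65 ± 0.04 and 0.57 ± 0.04 (adjusted p = 1.58e-08 and 3.63e-08). With library totals as the scale the medians were -0.17 in both lines. CEBPB, the factor of emergency granulopoiesis and macrophage activation, was at 16.8 CPM in MOLM13 SGI-7079 and 17.2 CPM in MOLM13 DMSO (-0.04 ± 0.08, adjusted p = 0.748). It was at 50.9 CPM in MV411 SGI-7079 and 48.3 CPM in MV411 DMSO (0.08 ± 0.08, adjusted p = 0.44), and passed there with library totals as the scale (0.19, adjusted p = 0.0484). The stress factor gene DDIT3 also did not pass (-0.21 ± 0.15 in MOLM13 and -0.16 ± 0.15 in MV411, adjusted p = 0.259 and 0.391).

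Of 11 tested target genes of the C/EBP factors, 2 were higher and 6 lower in treated MOLM13, and 4 higher and 6 lower in treated MV411. Over all genes tested, 23.2% were higher and 23.6% lower in MOLM13, and 27.2% higher and 24.3% lower in MV411. For the 10 targets with a mean of at least 1 CPM, the median log2 fold change was -0.36 in MOLM13 and -0.59 in MV411. The medians over all genes of that level were -0.01 and 0.02. The genes that fell were mostly those of granule proteins. PRTN3, the granule protease proteinase 3, averaged 872 CPM in MOLM13 SGI-7079 and 1378 CPM in MOLM13 DMSO (-0.66 ± 0.04, adjusted p = 3.8e-09), and 320.2 CPM in MV411 SGI-7079 and 812 CPM in MV411 DMSO (-1.34 ± 0.04, adjusted p = 2.36e-12). ELANE, neutrophil elastase, fell by 0.30 ± 0.05 in MOLM13 and by 0.76 ± 0.05 in MV411 (adjusted p = 0.00024 and 2.19e-08). AZU1, the granule protein azurocidin, fell in MOLM13 by 0.43 ± 0.03 (adjusted p = 3.39e-08) but rose by 0.09 ± 0.03 in MV411 (adjusted p = 0.0154), a difference of 0.53 ± 0.04 (adjusted p = 1.43e-06). Against that direction, CSF3R, the receptor of the granulocyte growth factor G-CSF, averaged 351 CPM in MOLM13 SGI-7079 and 126 CPM in MOLM13 DMSO (1.48 ± 0.04, adjusted p = 1.32e-11), and 299 CPM in MV411 SGI-7079 and 123 CPM in MV411 DMSO (1.28 ± 0.04, adjusted p = 1.35e-11). CHI3L1, a secreted chitinase-like protein, rose by 0.45 ± 0.03 in MOLM13 and 0.47 ± 0.03 in MV411 (adjusted p = 9.99e-08 and 4.95e-08).

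IRF8, the interferon regulatory factor that directs progenitors to monocytes and dendritic cells, moved in opposite directions in the lines (ENSG00000140968, chromosome 16, 85899116 to 85922606, plus strand). In MOLM13 it had 746, 733 and 772 CPM with SGI-7079, against 684, 672 and 669.7 CPM with DMSO. In MV411 it had 882, 849 and 836 CPM with SGI-7079, against 962, 943 and 954 CPM with DMSO. Treated libraries were all above the DMSO libraries in MOLM13 and all below them in MV411. The log2 fold change was 0.15 ± 0.03 in MOLM13 (adjusted p = 0.000521) and -0.16 ± 0.03 in MV411 (adjusted p = 0.000365). The difference between the lines, -0.31 ± 0.04 (adjusted p = 0.00011), passed the test under each of the 20 alternatives, at -0.41 to -0.28. The fall in MV411 depended on the scale, since it was -0.04 with library totals (adjusted p = 0.112) and -0.05 in the tests on FPKM (adjusted p = 0.0678 to 0.0882). It was -0.25 to -0.22 without any of the 9 libraries named above. Between the untreated lines, IRF8 averaged 953 CPM in MV411 DMSO and 675 CPM in MOLM13 DMSO (0.50 ± 0.03, adjusted p = 3.92e-09).

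IRF5, which activates inflammatory cytokine genes in macrophages downstream of Toll-like receptors, was the factor that rose in both lines (ENSG00000128604, chromosome 7, 128937457 to 128950038, plus strand). MOLM13 SGI-7079 libraries had 77.5, 78 and 77 CPM, against 47.1, 45.9 and 42.8 CPM in MOLM13 DMSO. MV411 SGI-7079 libraries had 234, 242 and 229 CPM, against 162, 157 and 174 CPM in MV411 DMSO. Every treated library lay above every DMSO library of its line. The log2 fold change was 0.78 ± 0.04 in MOLM13 (adjusted p = 7.09e-09), a ratio of 1.71, and 0.51 ± 0.04 in MV411 (adjusted p = 1.83e-07), a ratio of 1.43. It ranged from 0.74 to 0.86 in MOLM13 and from 0.41 to 0.63 in MV411 over 21 alternatives. The effect was smaller in MV411 (-0.26 ± 0.06, adjusted p = 0.00756), a difference that did not pass in the unfiltered test on FPKM (-0.16, adjusted p = 0.0795).

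The level of IRF5 differed between the lines more than the inhibitor changed it. It averaged 164 ± 8.45 CPM in MV411 DMSO and 45.3 ± 2.24 CPM in MOLM13 DMSO, a log2 fold change of 1.86 ± 0.04 (adjusted p = 7.84e-13) and a ratio of 3.63. This was the largest difference between the untreated lines among the 9 factors. Even with SGI-7079, MOLM13 libraries stayed below the MV411 DMSO libraries, at up to 78 CPM against 157 CPM or more.

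Of 4 IRF5 starts in RefSeq, 1 is shown because its upstream stretch holds the composite site of ETS and interferon regulatory factors, through which PU.1 and IRF8 are known to bind together. The 206 bases printed lie at chr7:128940464-128940669 on the plus strand of GRCh38.p14, in a window of 250 bases from which 44 bases of another exon were left out. Capitals mark, in order, the reverse complement of the RUNX motif TGTGGT at position -183 and of the composite (GGAA and GAAA with 2 bases between) at position -33. Of 35097 windows of 250 bases, 11% hold the RUNX motif and 2.41% the composite, on either strand.
IRF5 promoter: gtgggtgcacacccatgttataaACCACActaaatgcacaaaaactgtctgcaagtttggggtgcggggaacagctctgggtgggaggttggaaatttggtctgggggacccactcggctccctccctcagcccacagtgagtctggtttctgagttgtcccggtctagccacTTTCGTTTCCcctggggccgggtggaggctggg

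Other interferon regulatory factors also rose more often than they fell. Of 6 tested, 3 were higher and 1 lower in treated MOLM13, and 5 higher and 0 lower in treated MV411, with medians of 0.26 and 0.60. The shares over all genes tested were 23.2% higher and 23.6% lower in MOLM13, and 27.2% higher and 24.3% lower in MV411. Genes with a transcription factor family leaned upward in MV411, with 38.4% higher and 21.5% lower. Medians over all genes with a mean of at least 1 CPM were -0.01 and 0.02. IRF7, the main inducer of type I interferon, averaged 22 CPM in MOLM13 SGI-7079 and 13.1 CPM in MOLM13 DMSO (0.75 ± 0.09, adjusted p = 7.78e-06), and 30.3 CPM in MV411 SGI-7079 and 15.5 CPM in MV411 DMSO (0.97 ± 0.09, adjusted p = 4.47e-07). IRF9, the DNA-binding part of the interferon-activated complex ISGF3, rose by 0.67 ± 0.19 in MOLM13 (adjusted p = 0.0113) and 1.31 ± 0.19 in MV411 (adjusted p = 5.03e-05). IRF2 rose by 0.22 ± 0.06 in MOLM13 and 0.16 ± 0.06 in MV411 (adjusted p = 0.0079 and 0.0382). IRF1, its activating counterpart, rose by 0.23 ± 0.06 in MV411 (adjusted p = 0.00584). In MOLM13 IRF1 was at 0.15 ± 0.06, short of the threshold (adjusted p = 0.0701), and IRF3, which viral nucleic acid sensors activate, fell by 0.11 ± 0.04 (adjusted p = 0.0335), which RLE scaling and library totals did not keep (adjusted p = 0.064 and 0.644). Under those scalings IRF1 passed in MOLM13, at 0.16 and 0.23 (adjusted p = 0.0461 and 0.00454). In MV411 IRF3 did not pass (0.06 ± 0.04, adjusted p = 0.233), but it did with library totals as the scale (0.17, adjusted p = 0.00231). With library totals, 4 relatives were then higher and 0 lower in MOLM13, and 6 higher and 0 lower in MV411.

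IRF4, a factor of lymphoid and dendritic cells close in sequence to IRF8, had a higher level in MV411. It averaged 25.9 ± 2 CPM in MV411 SGI-7079 and 12.9 ± 0.704 CPM in MV411 DMSO (1.01 ± 0.29, adjusted p = 0.00997), and 0.182 and 0.149 CPM in MOLM13 SGI-7079 and MOLM13 DMSO (0.30 ± 0.60, adjusted p = 0.735). All 6 relatives were higher in MV411 DMSO than in MOLM13 DMSO, as IRF8 and IRF5 were, with a median of 0.65. Over all genes tested, 27.7% were higher in MV411 DMSO.

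Target genes of IRF8 and IRF5 divided. Of 8 tested, 5 were higher and 2 lower in treated MOLM13, and 3 higher and 2 lower in treated MV411. Over the 7 with a mean of at least 1 CPM, the median was 0.51 in MOLM13 and 0.01 in MV411. CST3, the protease inhibitor cystatin C, rose by 0.83 ± 0.04 in MOLM13 and 0.93 ± 0.04 in MV411 (adjusted p = 9.21e-10 and 1.05e-10). CYBB, the catalytic subunit of the phagocyte oxidase, rose by 1.00 ± 0.11 and 0.72 ± 0.12 (adjusted p = 6.94e-06 and 0.000149). TNF, the inflammatory cytokine, fell, at 106 CPM in MOLM13 SGI-7079 and 252 CPM in MOLM13 DMSO (-1.25 ± 0.06, adjusted p = 2.69e-09), and at 12.8 CPM in MV411 SGI-7079 and 48.6 CPM in MV411 DMSO (-1.93 ± 0.07, adjusted p = 5.36e-11). CTSC, the protease that activates granule proteases, fell by 0.33 ± 0.03 in MOLM13 and 0.41 ± 0.03 in MV411 (adjusted p = 7.01e-07 and 4.57e-08).

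RUNX1, the DNA-binding subunit of core-binding factor and a frequent target of mutation in leukaemia, was the other factor with opposite effects (ENSG00000159216, chromosome 21, 34787801 to 36004667, minus strand). In MOLM13 it had 213, 218 and 217 CPM with SGI-7079, against 244, 242 and 237 CPM with DMSO. In MV411 it had 418, 421 and 433 CPM with SGI-7079, against 362, 366 and 369 CPM with DMSO. Neither pair of groups overlapped. The log2 fold change was -0.16 ± 0.03 in MOLM13 (adjusted p = 0.0002) and 0.21 ± 0.03 in MV411 (adjusted p = 9.01e-06). The difference between the lines was 0.37 ± 0.04 (adjusted p = 1.08e-05). All 3 calls kept their direction and side of the threshold under the alternatives, although the MOLM13 value was -0.07 with library totals as the scale (adjusted p = 0.0431) and -0.06 in the unfiltered test on FPKM (adjusted p = 0.0488). The MV411 value was 0.13 to 0.15 without any of the 9 libraries named above and 0.32 with library totals as the scale. RUNX1 was also higher in untreated MV411, at 366 CPM in MV411 DMSO and 241 CPM in MOLM13 DMSO (0.60 ± 0.03, adjusted p = 2.37e-10).

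RUNX2, a core-binding factor best known in bone and also active in dendritic cells, rose in both lines, unlike RUNX1. It averaged 145 CPM in MOLM13 SGI-7079 and 73.5 CPM in MOLM13 DMSO (0.99 ± 0.03, adjusted p = 2.64e-11), and 169.9 CPM in MV411 SGI-7079 and 115 CPM in MV411 DMSO (0.56 ± 0.03, adjusted p = 2.18e-09). The effect was smaller in MV411 (-0.42 ± 0.04, adjusted p = 1.3e-05). CBFB, the shared partner that stabilises the RUNX proteins on DNA, fell by 0.50 ± 0.03 in MOLM13 and by 0.63 ± 0.03 in MV411 (adjusted p = 2.49e-08 and 1.2e-09). CBFA2T2, a corepressor of the ETO family, rose by 0.59 ± 0.06 and 0.53 ± 0.06 (adjusted p = 3.13e-06 and 5.88e-06). Its relative CBFA2T3 fell by 0.22 ± 0.06 in MOLM13 (adjusted p = 0.00547) and was at 0.03 ± 0.05 in MV411 (adjusted p = 0.696). RUNX3, a factor of T cells and macrophages, fell by 0.18 ± 0.06 in MOLM13 (adjusted p = 0.0203) and did not pass in MV411 (0.06 ± 0.05, adjusted p = 0.394). In all, 2 of 5 were higher and 3 lower in treated MOLM13, and 2 higher and 1 lower in treated MV411, with medians of -0.18 and 0.06. With library totals as the scale, 2 were higher and 1 lower in MOLM13 and 4 higher and 1 lower in MV411, since RUNX3 and CBFA2T3 lost their calls in MOLM13 (adjusted p = 0.208 and 0.059) and were called higher in MV411 (adjusted p = 0.0139 and 0.0387).

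IKZF1 encodes Ikaros, a zinc finger factor of lymphoid development that also acts in myeloid cells (ENSG00000185811, chromosome 7, 50304068 to 50405098, plus strand). It had 329, 326 and 340.4 CPM in MOLM13 SGI-7079, against 316, 309.8 and 318 CPM in MOLM13 DMSO. In MV411 the values were 354, 351 and 332 CPM with SGI-7079, against 369, 353 and 379 CPM with DMSO. The groups stood apart in MOLM13 and overlapped in MV411. Neither effect passed, at 0.08 ± 0.03 in MOLM13 (adjusted p = 0.0843) and -0.09 ± 0.03 in MV411 (adjusted p = 0.0514), and with library totals as the scale the values were 0.16 (adjusted p = 0.000347) and 0.03 (adjusted p = 0.496). In MOLM13 it also passed with RLE scaling (adjusted p = 0.0432), with DESeq2 (adjusted p = 0.0162) with only the libraries compared (adjusted p = 0.0482) and without replicate 2 of MV411 DMSO (adjusted p = 0.0448). The MV411 value passed without the filter on low counts (-0.14, adjusted p = 0.00469), with only the libraries compared (-0.15, adjusted p = 0.00689) and without any of the 9 libraries named above (-0.18 to -0.15, adjusted p = 0.000665 to 0.00514). The difference between the lines of -0.16 ± 0.05 passed (adjusted p = 0.0294), and did not pass without replicate 3 of MV411 DMSO (-0.14, adjusted p = 0.0706) or without replicate 3 of MV411 SGI-7079 (-0.13, adjusted p = 0.0783). It was -0.27 to -0.22 without any of the 9 libraries named above. In untreated cells IKZF1 averaged 367 CPM in MV411 DMSO and 315 CPM in MOLM13 DMSO (0.22 ± 0.03, adjusted p = 8.36e-05). A long non-coding RNA gene on the other strand overlaps its exons by 110 bases and held 18 to 37 counts per library.

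Of 4 Ikaros relatives tested, 0 rose and 1 fell in each line. IKZF4 (Eos) fell in MOLM13 by 0.31 ± 0.09 (adjusted p = 0.0127, or 0.0674 with library totals as the scale) and was at 0.06 ± 0.09 in MV411 (adjusted p = 0.62). IKZF5 (Pegasus) fell in MV411 by 0.32 ± 0.06 (adjusted p = 0.000577) and was at -0.14 ± 0.06 in MOLM13 (adjusted p = 0.0723). The lymphoid members IKZF2 (Helios) and IKZF3 (Aiolos) were near the detection limit, at 0.622 to 0.892 CPM and 0.0491 to 0.189 CPM as group means, and did not pass in either line.

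GFI1, a zinc finger repressor that holds monocyte genes down in favour of granulocytes, fell in MOLM13 (ENSG00000162676, chromosome 1, 92473043 to 92486925, minus strand). It had 193, 187 and 199.5 CPM in MOLM13 SGI-7079, against 264, 262 and 268 CPM in MOLM13 DMSO. In MV411 it had 254, 249 and 241 CPM with SGI-7079, against 264, 253 and 272 CPM with DMSO. The groups were far apart in MOLM13 and overlapped in MV411. The log2 fold change in MOLM13 was -0.45 ± 0.03 (adjusted p = 1.34e-07), a ratio of 0.73, and stayed between -0.47 and -0.36 over 21 alternatives. In MV411 the value of -0.09 ± 0.03 did not pass (adjusted p = 0.0539). It was 0.03 with library totals as the scale (adjusted p = 0.497) and -0.14 without the filter on low counts (adjusted p = 0.00498). It was -0.15 with only the libraries compared (adjusted p = 0.00595) and -0.18 to -0.16 without any of the 9 libraries named above (adjusted p = 0.000728 to 0.00526), so that 11 of 21 alternatives called it lower and 4 gave it the other sign.

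The effect on GFI1 differed between the lines by 0.37 ± 0.05 (adjusted p = 0.000133), in each of 20 alternatives with values of 0.26 to 0.39. Without treatment GFI1 was at nearly the same level, with 263 ± 9.64 CPM in MV411 DMSO and 265 ± 2.64 CPM in MOLM13 DMSO (-0.01 ± 0.03, adjusted p = 0.89). That value was 0.08 with library totals as the scale (adjusted p = 0.0346). GFI1 and CEBPE were the 2 factors whose levels did not pass the test between untreated lines. Of the other 7 factors, 6 were higher in MV411 DMSO and 1 was lower, where 27.7% of all genes were higher and 26.5% lower, or 54.2% in all. The groups did not overlap in these 7, nor in 60.9% of all genes.

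Of 3 GFI1 starts in RefSeq, 1 is shown because GFI1 had the largest fall of the 9 factors and its upstream stretch holds motifs of other members of the set. The 250 bases lie at chr1:92486100-92486349 on the minus strand of GRCh38.p14. Capitals mark, in order, the C/EBP motif TTGCNNAA (here TTGCGCAA) at position -142 and the RUNX motif TGTGGT at position -47. On either strand, 9.05% of 35097 windows of 250 bases hold the C/EBP motif and 11% the RUNX motif.
GFI1 promoter: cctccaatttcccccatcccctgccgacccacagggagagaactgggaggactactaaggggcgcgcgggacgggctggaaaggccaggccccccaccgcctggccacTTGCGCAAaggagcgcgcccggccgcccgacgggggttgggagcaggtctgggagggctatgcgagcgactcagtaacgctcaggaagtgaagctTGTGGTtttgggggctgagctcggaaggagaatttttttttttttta

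The search over RefSeq windows covered 8 motifs in those of CEBPA, CEBPE, IRF8, IRF5, GFI1, RUNX1 and IKZF1, which have 1, 1, 2, 4, 3, 1 and 3 windows. The other 4 motifs were GAGGAAGT of PU.1 (in 2.17% of all windows), the repeat of GAAA after 2 free bases of interferon regulatory factors (3.02%), AAATCNC of GFI1 (9.58%) and the E-box CACGTG (6.34%). The PU.1 letters, those of interferon regulatory factors alone and the E-box were not found in the windows of these genes. RUNX letters were also found at position -134 in 1 IRF8 window and at position -144 in 1 IKZF1 window. C/EBP letters stood at position -17 in the same IKZF1 window and at position -195 in another IRF5 window, and GFI1 letters at position -23 in another IKZF1 window. The windows printed were chosen after the matches were seen.

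Genes of corepressors that GFI1 recruits to silence its targets fell in both lines, whereas GFI1 itself passed the main test in MOLM13 alone. All 4 tested fell in both lines, with medians of -0.39 in MOLM13 and -0.51 in MV411, except that RCOR1 in MV411 did not pass with library totals as the scale (-0.06, adjusted p = 0.167). Of all genes tested, 23.6% were lower in treated MOLM13 and 24.3% in treated MV411. Medians over all genes with a mean of at least 1 CPM were -0.01 and 0.02. KDM1A, the histone demethylase LSD1, averaged 136 ± 4.84 CPM in MOLM13 SGI-7079 and 167 ± 4.84 CPM in MOLM13 DMSO (-0.29 ± 0.05, adjusted p = 0.00043), and 97.1 ± 8.46 CPM in MV411 SGI-7079 and 154 ± 3.61 CPM in MV411 DMSO (-0.66 ± 0.05, adjusted p = 1.49e-07). Its scaffold RCOR1 (CoREST) fell by 0.40 ± 0.04 in MOLM13 and 0.17 ± 0.04 in MV411 (adjusted p = 9.37e-07 and 0.00167). The fall of KDM1A was deeper in MV411 (-0.37 ± 0.07, adjusted p = 0.00307) and that of RCOR1 shallower (0.23 ± 0.05, adjusted p = 0.006). The histone deacetylase genes HDAC1 and HDAC2 fell by 0.38 ± 0.03 and 0.56 ± 0.03 in MOLM13 (adjusted p = 7.55e-07 and 5.18e-09) and by 0.39 ± 0.03 and 0.62 ± 0.03 in MV411 (adjusted p = 3.17e-07 and 1.03e-09). GFI1B, the erythroid and megakaryocytic relative, averaged 0 to 0.0729 CPM and was not tested.

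Genes that GFI1 is known to repress did not move one way. Of 8 tested, 3 rose and 3 fell in each line. Over the 6 with a mean of at least 1 CPM the median was -0.06 in MOLM13 and -0.30 in MV411, or 0.03 and -0.18 with library totals as the scale. The homeobox gene HOXA9 rose by 0.19 ± 0.05 in MOLM13 and 0.31 ± 0.05 in MV411 (adjusted p = 0.00642 and 9.91e-05). Its cofactor MEIS1 rose by 0.49 ± 0.04 in MOLM13 and 0.21 ± 0.04 in MV411 (adjusted p = 4.5e-07 and 0.000562). CDKN1A, the cell cycle inhibitor p21, fell by 0.37 ± 0.06 in MOLM13 and 1.07 ± 0.06 in MV411 (adjusted p = 0.000214 and 5.72e-09). ELANE fell by 0.30 ± 0.05 in MOLM13 and 0.76 ± 0.05 in MV411 (adjusted p = 0.00024 and 2.19e-08). ID1, an inhibitor of helix-loop-helix factors, fell by 0.77 ± 0.26 in MOLM13 and 1.49 ± 0.27 in MV411 (adjusted p = 0.0251 and 0.000344).

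**Figure D3:**
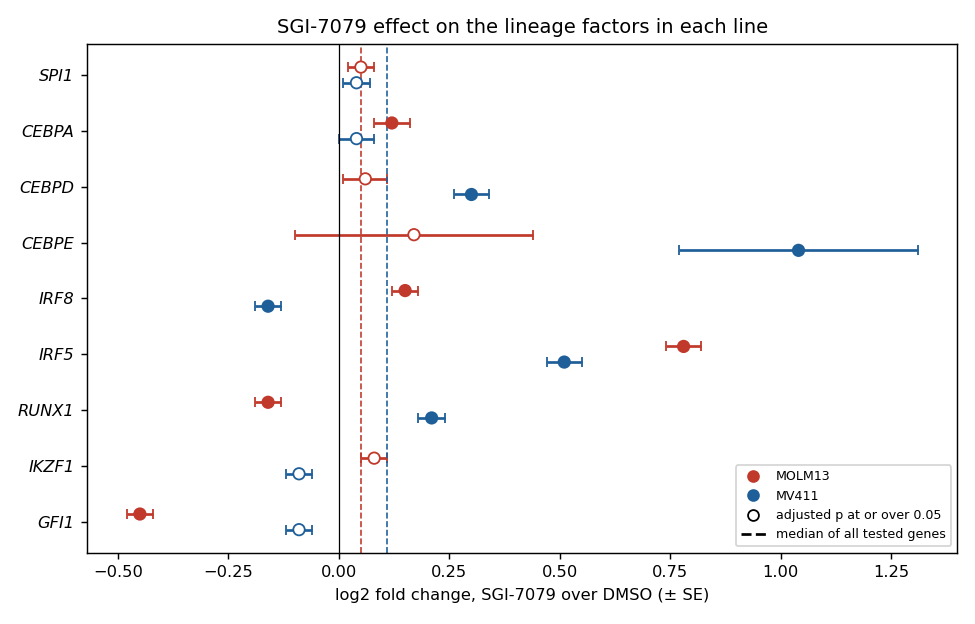
Log2 fold change of each factor, SGI-7079 over DMSO, with its SE, in MOLM13 (red) and MV411 (blue); open points did not pass the test and dashed lines are the medians of all tested genes, 0.05 and 0.11. IRF8 and RUNX1 have filled points on opposite sides of 0, and IRF5 lies to the right in both lines.

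The test of the difference between the lines passed for 6 of the 9 factors, with CEBPD, GFI1 and RUNX1 more positive in MV411 and IRF8, IRF5 and IKZF1 more negative. Over all genes, 8.85% were more positive and 11.8% more negative in MV411, or 20.7% in all. These 6 have 3 forms. IRF8 and RUNX1 passed in both lines with opposite signs. IRF5 passed in both with 1 sign. CEBPD and GFI1 passed in 1 line each, and IKZF1 in neither. The comparisons within a line and their difference share libraries and are not independent of each other.

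**Figure D4:**
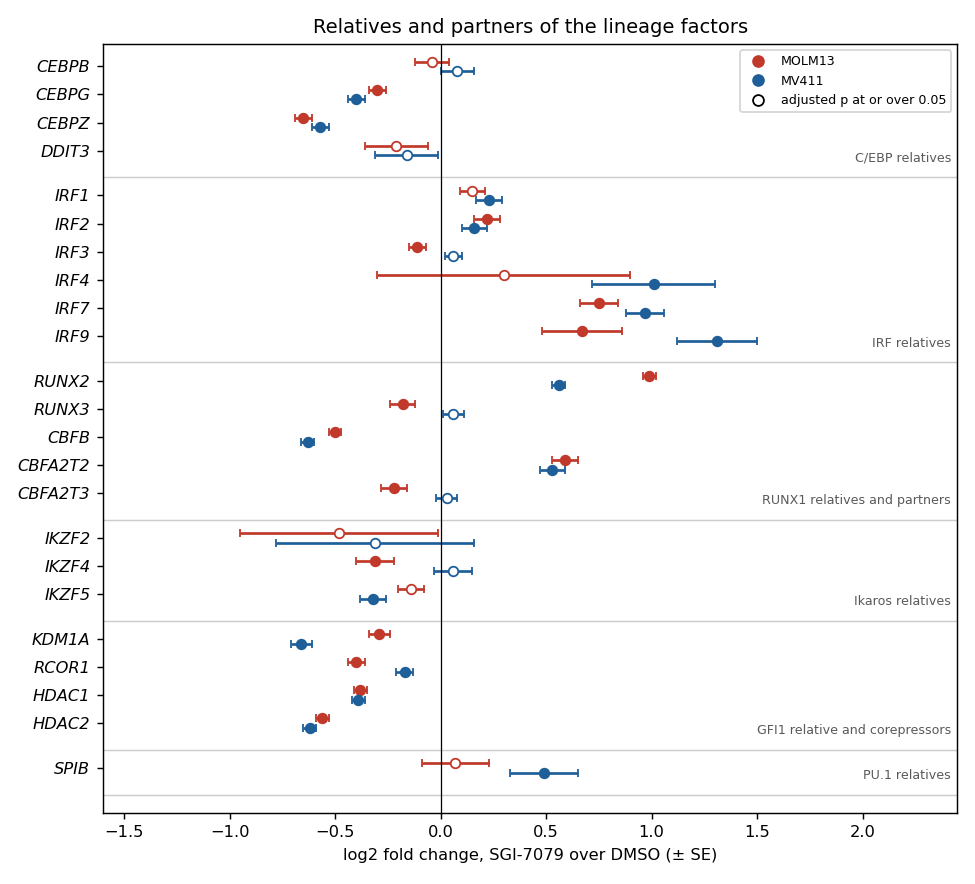
Log2 fold change, SGI-7079 over DMSO, with its SE, of relatives and partners of the 9 factors, grouped by family, in MOLM13 (red) and MV411 (blue); open points did not pass the test. IRF7, IRF9, RUNX2 and CBFA2T2 lie right of 0 and CEBPZ, CBFB, KDM1A, RCOR1, HDAC1 and HDAC2 left of it in both lines.

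Other factors of the myeloid path were mixed. Of 12 tested factors of monocytes and macrophages, 4 were higher and 4 lower in treated MOLM13, and 3 higher and 3 lower in treated MV411, and over the 10 with a mean of at least 1 CPM the medians were -0.04 and -0.06, and 0.05 in both lines with library totals as the scale. With library totals, 5 were higher and 2 lower in MOLM13 and 4 higher and 1 lower in MV411, since MEF2C lost its call in both lines, JUN in MOLM13 and NR4A1 in MV411, and ZEB2 was called higher in both. BCL6, a zinc finger repressor, averaged 7.45 CPM in MOLM13 SGI-7079 and 2.67 CPM in MOLM13 DMSO (1.48 ± 0.17, adjusted p = 8.35e-06), and 10.1 CPM in MV411 SGI-7079 and 2.64 CPM in MV411 DMSO (1.93 ± 0.17, adjusted p = 4.62e-07). TFEC, a macrophage factor of the MITF family, rose by 0.46 ± 0.08 in MOLM13 and 0.96 ± 0.07 in MV411 (adjusted p = 0.000174 and 1.03e-07). EGR1, an immediate early gene that ERK signalling induces, fell by 0.62 ± 0.16 in MOLM13 and 2.39 ± 0.17 in MV411 (adjusted p = 0.00629 and 5.25e-08), a difference of -1.77 ± 0.24 (adjusted p = 0.000132). The early response gene NR4A1 fell by 0.49 ± 0.13 in MOLM13 and 0.37 ± 0.13 in MV411 (adjusted p = 0.00645 and 0.0302). MEF2C, a MADS-box factor, fell by 0.11 ± 0.04 in MOLM13 and 0.13 ± 0.04 in MV411 (adjusted p = 0.0235 and 0.0128). With library totals as the scale its adjusted p was 0.624 and 0.77, and in MOLM13 it was 0.0504 with RLE scaling.

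Of 10 progenitor factors tested, 3 were higher and 4 lower in treated MOLM13, and 5 higher and 5 lower in treated MV411, with medians of -0.08 and 0.04, or 0.01 and 0.15 with library totals as the scale. With library totals, 4 were higher and 4 lower in MOLM13, and 5 higher and 3 lower in MV411. GATA2, a stem cell and mast cell factor, fell by 1.34 ± 0.17 in MOLM13 and fell by 2.05 ± 0.18 in MV411 (adjusted p = 1.45e-05 and 4.36e-07). MYB averaged 372 CPM in MOLM13 SGI-7079 and 518 CPM in MOLM13 DMSO (-0.48 ± 0.03, adjusted p = 8.18e-09). In MV411 it was at -0.16 ± 0.03 (adjusted p = 0.000198, or 0.132 with library totals as the scale). MYC averaged 354 CPM in MV411 SGI-7079 and 602 CPM in MV411 DMSO (-0.77 ± 0.03, adjusted p = 1.13e-10), and was at -0.19 ± 0.03 in MOLM13 (adjusted p = 0.000188). The effect on MYB was less negative in MV411 (0.32 ± 0.04, adjusted p = 7.25e-05) and that on MYC more negative (-0.58 ± 0.04, adjusted p = 9.77e-07). The bridging factor gene LMO2 rose by 0.27 ± 0.04 in MOLM13 (adjusted p = 7.3e-05) but fell by 0.11 ± 0.04 in MV411 (adjusted p = 0.0239, or 0.927 with library totals as the scale). Its effects in the lines differed by -0.38 ± 0.06 (adjusted p = 0.000266). The ETS genes FLI1 and ETV6 rose by 0.48 ± 0.03 and 0.32 ± 0.04 in MV411 (adjusted p = 5.05e-08 and 3.02e-05).

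Markers of the labelled lineage were present in part, and moved with treatment. Of 12 monocyte markers, LYZ, CD33, CD68, CSF1R, ITGAM, FCGR1A and MS4A7 were above 1 CPM in every group, while CD14 and FCN1 averaged 0.0682 to 0.257 CPM, CD86 0.391 to 6.49 CPM and VCAN 0.106 to 1.95 CPM. CD163 was at 0 in MV411 and at 0.194 and 0.0535 CPM in MOLM13 SGI-7079 and MOLM13 DMSO. The summed level of the list was 780.4 to 841 CPM in MOLM13 SGI-7079 against 717 to 734 CPM in MOLM13 DMSO, and 2216 to 2298 CPM in MV411 SGI-7079 against 2038 to 2131 CPM in MV411 DMSO. Of 11 tested, 5 were higher and 2 lower in treated MOLM13, and 6 higher and 2 lower in treated MV411. The summed granulocyte list, of which 7 genes were tested, was 2888 to 2995 CPM in MOLM13 SGI-7079 against 3547 to 3692 CPM in MOLM13 DMSO, and 1499 to 1534 CPM in MV411 SGI-7079 against 1848 to 1948 CPM in MV411 DMSO. There 1 was higher and 4 lower in treated MOLM13, and 2 higher and 4 lower in treated MV411. The tested granulocyte genes are all among the C/EBP target genes above. The monocyte list shares CD14, CD68, CSF1R, LYZ, ITGAM and FCGR1A with the PU.1 target genes. The marker counts are therefore not independent of the counts of target genes.

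Summed levels of markers of other cell types were low beside those of the monocyte and granulocyte lists, but single genes reached levels of some monocyte markers. The megakaryocyte marker ITGA2B averaged 25.8 CPM in MV411 SGI-7079 and 11.5 CPM in MV411 DMSO, and the B cell marker PAX5 15.1 CPM in MOLM13 DMSO. EPOR averaged 16.3 to 31.4 CPM and NKG7 14.2 to 32.9 CPM over the groups, where the monocyte marker ITGAM averaged 5.73 CPM in MV411 DMSO. The stem cell marker CD34 was almost absent from every group and was not tested. It was at 0 in the SGI-7079 libraries of both lines and averaged 0.11 CPM in MOLM13 DMSO and 0.057 CPM in MV411 DMSO. KIT averaged 6.09 CPM in MOLM13 SGI-7079 and 1.84 CPM in MOLM13 DMSO, and 26.8 CPM in MV411 SGI-7079 and 5.05 CPM in MV411 DMSO. Summed levels of the erythroid, megakaryocyte, B cell, and T and NK cell lists lay between 2.33 and 35 CPM in every library. Of their 11 tested genes, the megakaryocyte list had 2 that rose in each line and 1 that fell in MOLM13, the T and NK cell list 1 that rose in each line, the erythroid list 1 that fell in each line (EPOR in MOLM13, lost with RLE scaling and library totals at adjusted p = 0.0568 and 0.154) and the B cell list 1 that fell in MOLM13. The part of any of these shifts in the changes of the 9 factors was not tested.

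For each factor, the 2 protein-coding genes with the most similar profile were sought among 10332 genes with a mean of 5 CPM or more, by the root mean square difference of centred log2 CPM over the 12 libraries. These were CES2 and CDIPT for SPI1 (0.042 and 0.043), RPL8 and COPA for CEBPA (0.038 and 0.043), ELP2 and DGKZ for CEBPD (both 0.038), and UBXN1 and ACP2 for CEBPE (0.161 and 0.162). KCNN2 and WIPI2 were closest to IRF8 (both 0.039), ALDH3B1 and SLC2A6 to IRF5 (0.075 and 0.087), and DOK1 and SRSF5 to RUNX1 (0.057 and 0.059). HDAC3 and KDM5C were closest to IKZF1 (both 0.042), and GSTO1 and RBMX to GFI1 (both 0.055). CEBPE, with the fewest counts, had the least similar neighbours. ALDH3B1, closest to IRF5, had log2 fold changes of 0.76 in MOLM13, 0.65 in MV411 and 1.78 for MV411 DMSO over MOLM13 DMSO, where IRF5 had 0.78, 0.51 and 1.86. GSTO1, closest to GFI1, had -0.43, 0.01 and -0.07.

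**Figure D5:**
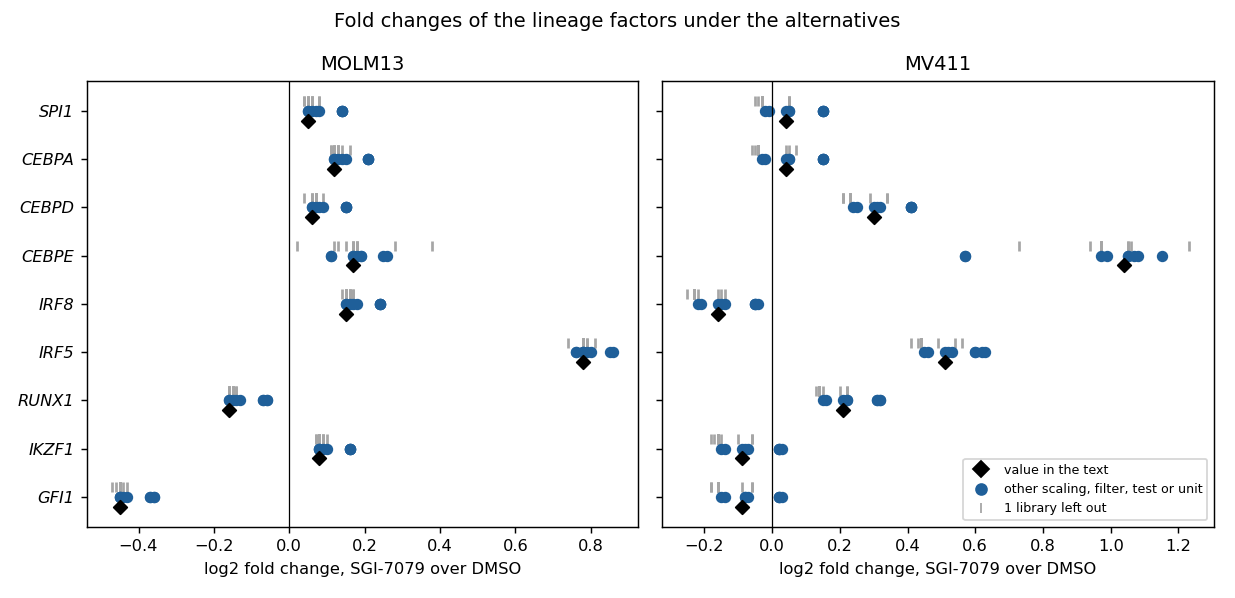
Log2 fold change of each factor, SGI-7079 over DMSO, as given in the text (black diamonds), under another scaling, filter, test or unit (blue points) and with 1 library left out (grey ticks). In MV411 the points of SPI1, CEBPA, IKZF1 and GFI1 fall on both sides of 0, while those of IRF5, CEBPD, CEBPE and RUNX1 stay right of it.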

How the data were processed

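RNA purified with oligo(dT) beads, per the labels' protocols, in 12 libraries was counted by gene, and the authors deposited 1 table with raw counts and FPKM values (fragments per kilobase of gene length, scaled to library size) for each library, per the file headers. The submitters' processing notes name cutadapt 1.9, HISAT2 2.2.1, StringTie 2.1.6, DESeq2, edgeR and the build hg38, without saying which made which values, and the series' design text names featureCounts for counting. The sources used here do not say whether counting used the strand. Columns were assigned to libraries by name, and 0 value columns were left unassigned.

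Counts were fitted with edgeR 4.0.16 (R 4.3.3): filterByExpr with a minimum count of 10, TMM scaling, 1 quasi-likelihood model with 4 group means over all 12 libraries, and Benjamini-Hochberg adjustment over 21438 genes, with a threshold of 0.05. The SE of a log2 fold change is its size divided by the square root of the F statistic. CPM are computed from the deposited counts with TMM-scaled totals. Values per gene length are the deposited FPKM. Replicates differed by 9.31 to 13.74 times the counting noise (chi-square per degree of freedom), so none is a repeat deposit. The script was tested on simulated counts for MOLM13 in which few genes were changed, which cannot judge the choice of scaling.

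The members and the 12 pathway and 7 marker lists were chosen with earlier results of these data known. Of each list, up to 4 genes with the smallest adjusted p in a comparison are named, besides members of short lists that did not pass and a few genes named as markers or because a line differed. Genes with no row in the table were not analysed here. Gene positions are those of the deposited table, and 35731 of 36041 gene IDs are in GENCODE 44. Promoter sequences are from RefSeq on GRCh38.p14. Alternatives were RLE scaling, DESeq2 1.42.0, no filter, only the libraries compared, the replicate number as a block, limma 3.58.1 on log2(FPKM + 1) or log2(FPKM + 0.1) for genes with a mean of at least 0.5 FPKM or unfiltered, leaving out each library, and, added later, library totals as the scale and ratios to SPI1.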

Additional observations from a re-analysis of the deposited data

Results flagged for a closer look

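The effect of SGI-7079 differed between the lines, by the test of the difference itself, for 6 of the 9 factors. On the log2 scale, MV411 minus MOLM13, the difference was 0.37 ± 0.04 for RUNX1 (0.21 in MV411 and -0.16 in MOLM13), -0.31 ± 0.04 for IRF8 (-0.16 and 0.15) and 0.37 ± 0.05 for GFI1 (-0.09 and -0.45). It was -0.26 ± 0.06 for IRF5 (0.51 and 0.78), 0.24 ± 0.06 for CEBPD (0.30 and 0.06) and -0.16 ± 0.05 for IKZF1 (-0.09 and 0.08). The adjusted p-values of edgeR's quasi-likelihood test were 1.08e-05, 0.00011, 0.000133, 0.00756, 0.0154 and 0.0294 in that order, where 20.7% of all genes passed the same test. The 6 were not equally stable. The difference passed in each of 20 alternatives for RUNX1, IRF8 and GFI1, but was lost in 10 for CEBPD, 2 for IKZF1 and 1 for IRF5. Groups of 3 libraries are too small for a search for outlying samples.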

How the results depend on the processing

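Counts of called factors moved in both lines. In MOLM13, 6 in place of 3 rose with library totals as the scale and in all 3 tests on FPKM. In MV411, 0 in place of 1 fell under those same settings and 3 fell without the filter on low counts or with only the libraries compared. Leaving out 1 library gave 1 to 3 that fell, and 3 without any of the 6 MOLM13 libraries, replicates 1 and 2 of MV411 DMSO or replicate 1 of MV411 SGI-7079. The MV411 median of all tested genes was also lower in these runs, at 0.030 to 0.056 against 0.114 with all libraries. The cause was not tested. The other counts stayed within 1.5 times under every alternative.

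Small log2 fold changes turned sign. In MV411, GFI1 and IKZF1 became 0.03 with library totals and 0.02 in the tests on FPKM, SPI1 became -0.01 and CEBPA -0.02 without the filter, and SPI1 -0.02 and CEBPA -0.03 with only the libraries compared. The SPI1 difference became 0.01 with library totals and on FPKM, and GFI1 between the untreated lines 0.00 with RLE scaling, 0.02 with DESeq2 and 0.08 with library totals and on FPKM. With 1 library left out, SPI1 in MV411 ran from -0.05 to 0.05, CEBPA in MV411 from -0.06 to 0.07, the SPI1 difference from -0.11 to 0.00, and GFI1 and CEBPE between the untreated lines from -0.03 to 0.02 and from -0.09 to 0.33. Of 315 values of single factors under the other alternatives, 259 kept direction and side of the threshold.

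The replicate number as a block left the counts at 3 and 2 in MOLM13 and 4 and 1 in MV411 and changed no call. The numbers did not pair libraries of a line (correlation of deviations 0.003 to 0.041).

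Depth limits CEBPE most, with 48 to 172 counts per library.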

Other observations

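Ratios of counts to SPI1 within a library do not depend on library scaling. They were added after the data were seen, share SPI1 as the denominator, and can reach no exact two-sided permutation p below 0.1 with 3 against 3 libraries. In MV411 the groups did not overlap for 7 of the other 8 factors, against 61.1% of all genes by CPM, and in MOLM13 for 3 of 8, against 56.2%. Those percentages are for scaled CPM and are not a matched background. The share of all genes was not computed for ratios to SPI1. In MOLM13 the mean log2 ratio of IRF5 to SPI1 was -1.46 ± 0.03 with SGI-7079 and -2.19 ± 0.10 with DMSO, that of GFI1 -0.14 ± 0.08 and 0.36 ± 0.02, and that of RUNX1 0.02 ± 0.04 and 0.23 ± 0.06 (SD, n = 3 each, exact permutation p = 0.1).

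In MV411 the mean log2 ratio of IRF5 to SPI1 was -0.30 ± 0.06 with SGI-7079 and -0.78 ± 0.05 with DMSO, that of RUNX1 0.55 ± 0.06 and 0.38 ± 0.02, and that of IRF8 1.56 ± 0.01 and 1.76 ± 0.02 (SD, n = 3 each, exact permutation p = 0.1). GFI1 and IKZF1, whose direction in MV411 moved with the scale, each had a log2 ratio to SPI1 that differed by -0.13 between SGI-7079 and DMSO libraries, without overlap. The MV411 value of SPI1 moved with the scale as well. These ratios therefore compare each gene with SPI1 and cannot show whether GFI1 or IKZF1 itself fell. In MOLM13 the ratios of CEBPA, CEBPD, CEBPE, IRF8 and IKZF1 overlapped between the groups, with differences of 0.07, 0.01, 0.14, 0.10 and 0.02.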
